A study of Homo sapiens with 18 samples.

Results

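LNCaP cells that carried an shRNA against FOXA1 were compared with LNCaP cells that carried the same shRNA together with one against HIF1A. LNCaP is an established human prostate cancer cell line with a luminal phenotype and an active androgen receptor. The comparison used 6 of the 18 libraries of the series: 3 with shFOXA1 alone and 3 with shFOXA1 + shHIF1A, called the double knockdown here. Cells of both groups were infected with lentivirus for 5 days and were given 100 µM CoCl2 for the last 24 h, and the labels list their genotype as WT. CoCl2 is a chemical that stabilises HIF1A protein in the presence of oxygen, so it mimics hypoxia without lowering oxygen, and no library without it was analysed here. Of 26443 genes with values, 12900 had at least 1 RPKM (reads per kilobase of transcript scaled to library depth) in at least 3 of the 18 libraries and were tested. The 3 libraries with the control vector pGIPZ and the 3 with shHIF1A alone, which had the same infection time and the same CoCl2, served as the reference for the HIF1A shRNA in cells with normal FOXA1. The comparison asks which part of the expression pattern of FOXA1-depleted cells changes when HIF1A is removed as well. A single cell line, 1 infection time and 1 dose of CoCl2 were used, and the labels say that each condition was done in triplicate but not whether the replicates were separate cultures. All 18 libraries were fitted together. Among them, KC7F2, a small-molecule inhibitor of HIF1A, was given at 40 µM in 3 further pGIPZ and 3 further shFOXA1 libraries. The p-values therefore reflect only how much these 18 libraries, with and without KC7F2, vary within their groups, which may be technical. The labels do not say if single-shRNA cells carried an additional vector, so the number of viral vectors per cell cannot be told apart from the loss of HIF1A.

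HIF1A is the oxygen-regulated subunit of the transcription factor HIF-1. In oxygenated cells prolyl hydroxylases (the EGLN enzymes) mark it for destruction through the VHL ubiquitin ligase, and in hypoxia, or with cobalt, it persists, pairs with ARNT and binds short DNA motifs near genes for glucose uptake, glycolysis, lactate production, angiogenesis and matrix modification. FOXA1 is a pioneer transcription factor of luminal prostate epithelium that opens chromatin for the androgen receptor, and its loss is known to be accompanied by a change of cell identity in prostate cancer.

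The core of the HIF-binding motif is ACGTG or GCGTG. Upstream windows are shown for the 4 hypoxia target or glycolysis genes with the largest falls that had such a match before the transcription start outside any exon of GENCODE 29. The windows were thus picked for holding a match. PDK1, which fell by more than PPFIA4 and PFKFB4, is not among them. The sequences are from RefSeq (GRCh38.p14), run 5′ to 3′ on the strand of the gene, and have matches to either motif on either strand in capitals. PLOD2 is at chr3:146161328-146161427 on the minus strand, LDHA at chr11:18394313-18394387 on the plus strand, PPFIA4 at chr1:203026342-203026441 on the plus strand and PFKFB4 at chr3:48556924-48556982 on the minus strand. By GENCODE 29 the LDHA and PPFIA4 windows lie outside genes, and the other two lie within an intron of longer transcripts of their own gene.
PLOD2: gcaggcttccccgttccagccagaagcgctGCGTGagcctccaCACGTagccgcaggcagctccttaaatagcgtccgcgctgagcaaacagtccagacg
LDHA: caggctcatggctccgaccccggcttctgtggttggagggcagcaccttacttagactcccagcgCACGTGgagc
PPFIA4: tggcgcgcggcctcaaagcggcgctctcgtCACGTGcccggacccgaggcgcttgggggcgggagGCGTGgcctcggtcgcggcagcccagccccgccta
PFKFB4: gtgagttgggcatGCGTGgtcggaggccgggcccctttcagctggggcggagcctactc

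In 300-base RefSeq windows around the start (both motifs, both strands, overlapping matches counted once per window), 26 of 31 hypoxia target and glycolysis genes that fell held a match (83.9%), as did 13 of 19 of those that did not fall (68.4%). Among all 27305 windows the share was 48.4%, among the 9254 windows of tested genes 64.0%, among 1266 windows of genes that fell 67.1% and among 2313 windows of genes that rose 59.5%. A match is a string of letters and no measurement of binding.

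Depth, recovered from the spacing of low values, was 6.33 ± 1.28 (in units of 1000000 reads, SD, n = 3) with shFOXA1 and 6.06 ± 2.61 in the double knockdown, with a range of 3.26 to 12.1 over the 18 libraries. Within both groups the correlation of log2 values between libraries was 0.961 to 0.970 across genes. Of the 12900 tested genes, 3096 rose (24%) and 1745 fell (13.5%) in the double knockdown at an adjusted p below 0.05 (limma, Benjamini-Hochberg), and 546 (4.23%) rose and 456 (3.53%) fell by at least 2-fold. The balance of rises and falls depended on scaling, because the median log2 fold change of all tested genes was 0.10 on the deposited scale. Rises made up 64.0% of the calls on the deposited scale, 48.7% after median-ratio scaling (2260 rose, 2383 fell), 52.5% after quantile normalisation (2531 rose, 2294 fell) and 49.0% after each library's dependence on gene length was removed (2426 rose, 2521 fell). Median-ratio scaling moved the median of all genes to -0.01. Fold changes are therefore best read against 0.10, and are given as log2 differences ± SE of log2(RPKM + 0.5), a scale that makes changes of low genes look smaller. The filter let 232 genes in that were below 1 RPKM in all 6 libraries compared. It let in 16 genes only through the double knockdown and 9 only through shFOXA1.

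Cell identity was checked with markers. Luminal markers summed to 1816 to 1928 RPKM per library with shFOXA1 and 1664 to 1865 RPKM in the double knockdown. Of 10 fibroblast markers 3 were tested, of which 2 rose and 1, ACTA2, fell. The list summed to 14.7 to 15.6 RPKM with shFOXA1 and 7.96 to 9.50 RPKM in the double knockdown, most of it from ACTA2 with shFOXA1. Leukocyte markers summed to 18.9 to 19.7 and 10.6 to 12.4 RPKM, with CD68, a lysosomal protein, as the 1 tested gene of 10, and endothelial markers summed to 0.923 to 1.33 and 1.08 to 1.30 RPKM.

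The HIF1A shRNA lowered its target. HIF1A mRNA (chromosome 14, 61695513 to 61748259, hg38) was at 88.6, 81.6 and 99.5 RPKM in the 3 shFOXA1 libraries and at 4.33, 4.07 and 4.56 RPKM in the double knockdown. The groups lay far apart, and the change was -4.23 ± 0.23 (adjusted p = 1.45e-09). The double knockdown thereby had a level near that of shHIF1A alone (3.56 ± 0.642 RPKM, SD, n = 3) and below pGIPZ (23.1 ± 7.91).

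FOXA1 mRNA was less depleted in the doubly infected cells. It (chromosome 14, 37589984 to 37596059) was at 35.1, 32.4 and 34.8 RPKM with shFOXA1 and at 70.7, 63.5 and 59.3 RPKM in the double knockdown, against 97.5 ± 22.7 RPKM with pGIPZ. All 3 double knockdown libraries were above all 3 shFOXA1 libraries, a rise of 0.91 ± 0.16 (adjusted p = 0.000302). Every difference described here is therefore one between cells with different amounts of FOXA1 as well as HIF1A. The part of FOXA1 in each of them was not tested.

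The miRNA gene MIR30A was examined because of the vector design. Lentiviral pGIPZ vectors place their shRNA in a hairpin built on human miR-30, and reads from such a hairpin can align to MIR30A (chromosome 6, 71403551 to 71403621). The mature sequences from RefSeq (GRCh38.p14) are shown with the seed, bases 2 to 8, in capitals, to show what the native gene encodes at the locus that carried this signal.
hsa-miR-30a-5p: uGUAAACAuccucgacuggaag
hsa-miR-30a-3p: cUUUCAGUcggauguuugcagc

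MIR30A was listed at 7572, 7652 and 9451 RPKM with shFOXA1 and at 5300, 4051 and 4836 RPKM in the double knockdown, with no overlap between the groups, as for 49.5% of all tested genes. The change was -0.80 ± 0.22 (adjusted p = 0.00963). It was not called with no filter on low values (adjusted p = 0.127), and quantile normalisation gave 0, because MIR30A held the highest value of all tested genes in each of the 6 libraries. The level was 6641 ± 803 RPKM with pGIPZ and 27.9 ± 10.9 RPKM with shHIF1A alone, so that the group with only the HIF1A shRNA lacked a signal which the other 3 groups had. The backbone of the HIF1A shRNA is not stated, and whether these reads come from the vector or from the gene was not tested.

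**Figure D1:**
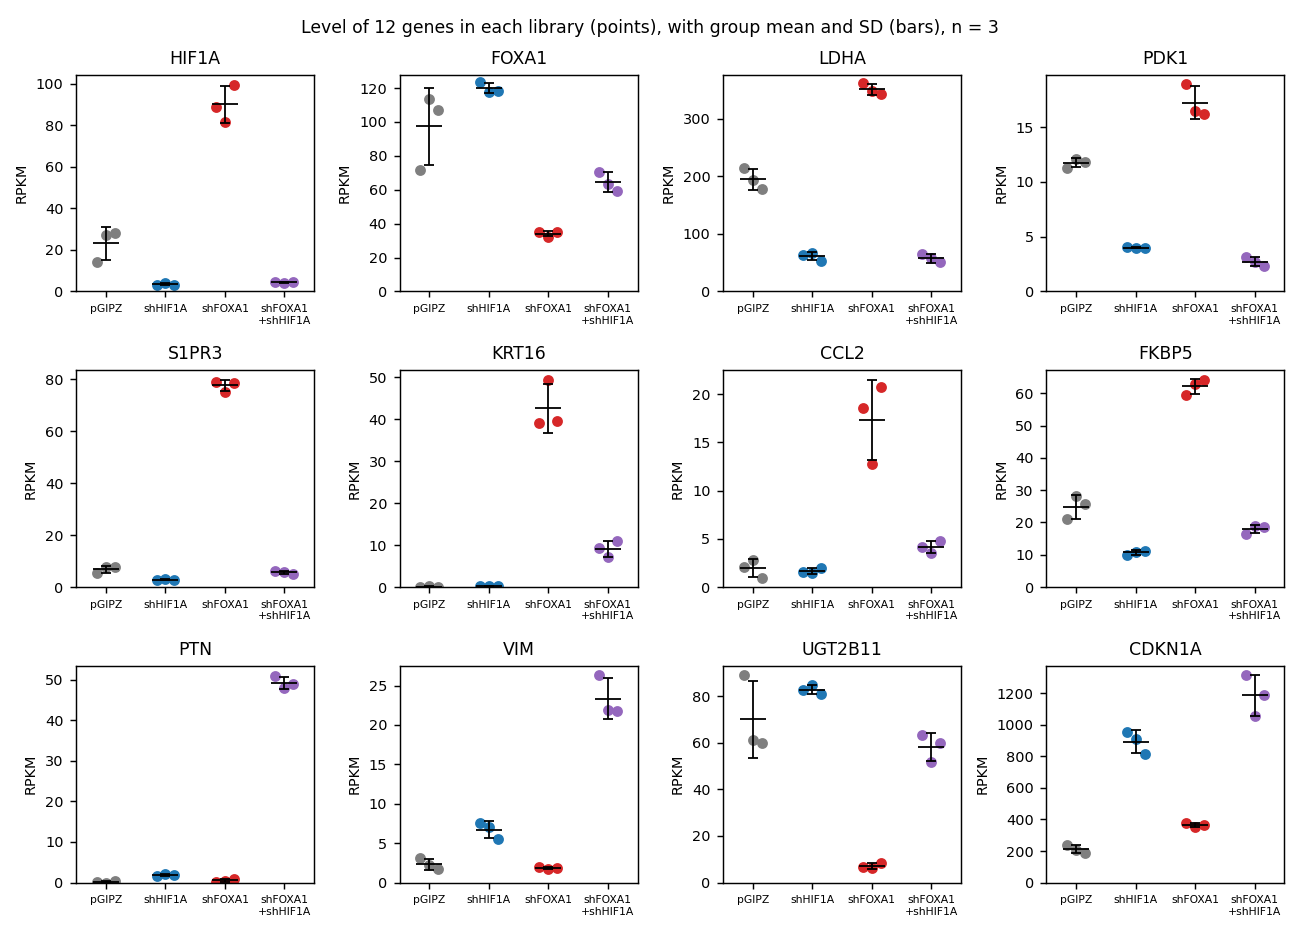
RPKM (vertical axis, linear from 0) of 12 genes in each of 3 libraries of pGIPZ, shHIF1A, shFOXA1 and shFOXA1 + shHIF1A; points are libraries, and bars are the group mean and SD. HIF1A is near the floor in both groups with its shRNA, FOXA1 in the double knockdown lies between shFOXA1 and pGIPZ, and LDHA, PDK1, S1PR3, KRT16, CCL2 and FKBP5 are lower, and PTN, VIM, UGT2B11 and CDKN1A higher, in the double knockdown than with shFOXA1.

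Glycolysis fell as a group. Of 24 tested glycolysis and lactate genes, 19 fell and 1 rose (79.2% and 4.17%, against 13.5% and 24% of all tested genes), and their median change was -1.05 against 0.10. LDHA, the lactate dehydrogenase that turns pyruvate into lactate, was at 361, 348 and 342 RPKM with shFOXA1 and at 65.8, 57.7 and 50.4 RPKM in the double knockdown. The highest double knockdown library was far below the lowest shFOXA1 library, and the change was -2.59 ± 0.11 (adjusted p = 1.69e-10). PDK1, the kinase that shuts pyruvate dehydrogenase off, was at 19.0, 16.5 and 16.2 RPKM and at 3.11, 2.68 and 2.30 RPKM. PDK1 changed by -2.48 ± 0.09 (adjusted p = 9.38e-11), the smallest adjusted p of the list, without overlap.

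The falls ran from glucose uptake to pyruvate. The glucose transporter SLC2A1 changed by -1.26 ± 0.12 and the hexokinase HK2, which traps glucose in the cell, by -1.31 ± 0.13. PFKFB4, which makes the activator of phosphofructokinase, went from 15.4, 16.7 and 15.5 RPKM to 2.90, 3.36 and 3.43 RPKM, a change of -2.13 ± 0.10 (adjusted p = 4.11e-10). The platelet-type phosphofructokinase PFKP changed by -1.51 ± 0.12, while the muscle-type PFKM rose by 0.35 ± 0.09 (adjusted p = 0.00515), and the liver-type PFKL changed by -0.35 ± 0.15 without passing (adjusted p = 0.07). Of the enolases, ENO1 changed by -1.21 ± 0.10 and ENO2 by -1.61 ± 0.11. Pyruvate kinase PKM, the last step before lactate, changed by -0.95 ± 0.10 from levels of 500 to 558 RPKM.

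Several steps did not follow. PGK1, phosphoglycerate kinase, was at 342, 351 and 341 RPKM with shFOXA1 and at 495, 403 and 385 RPKM in the double knockdown. All 3 double knockdown libraries were higher, but the difference of 0.30 ± 0.14 did not pass (adjusted p = 0.0927). It was called after quantile normalisation (adjusted p = 0.0011). Of the other 3 members without a call, HK1 and PFKL were called lower after median-ratio scaling (adjusted p = 0.023 and 0.00546). The monocarboxylate exporter SLC16A3 fell by 0.49 (adjusted p = 0.0126) from 4.81, 8.05 and 7.24 RPKM to 4.70, 4.35 and 4.49 RPKM, where 1 shFOXA1 library lay close to the double knockdown. Without shFOXA1 replicate 2 or 3 it was not called (adjusted p = 0.0754 and 0.056).

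Glycogen enzymes moved in the same direction. Of 11 tested genes of glycogen and carbon storage, 5 fell and 1 rose (45.5% and 9.09%, against 13.5% and 24% of all tested genes). Their median was -0.33. Glycogen synthase GYS1 was at 31.6, 29.4 and 31.3 RPKM and at 13.2, 12.3 and 14.5 RPKM, a change of -1.18 ± 0.11 (adjusted p = 3.85e-07). The branching enzyme GBE1 changed by -1.32 ± 0.13 (adjusted p = 1.31e-06) and PGM1, which links glucose 6-phosphate to glycogen, by -1.52 ± 0.14 (adjusted p = 3.64e-07). The single member that rose, the lysosomal glucosidase GAA (0.27 ± 0.10, adjusted p = 0.0444), was not called after median-ratio scaling (adjusted p = 0.181) or quantile normalisation (adjusted p = 0.186).

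Hypoxia targets outside glycolysis fell less evenly. Of 37 tested members of the list, 4 of which are also on the glycolysis list, 23 fell and 5 rose. These were 62.2% and 13.5%, against 13.5% and 24% of all tested genes, and the median was -0.60. PLOD2, the lysyl hydroxylase that sets collagen crosslinks, was at 5.02, 4.72 and 4.38 RPKM and at 0.0756, 0.494 and 0.409 RPKM, a change of -2.69 ± 0.18 (adjusted p = 1.49e-08). PPFIA4, a scaffold protein, was at 3.67, 4.80 and 3.82 RPKM and at 0.332, 0.476 and 0.385 RPKM, a change of -2.35 ± 0.17 (adjusted p = 2.31e-08). Both genes were below 0.5 RPKM in every double knockdown library, so their remaining levels rest on few reads. The adenylate kinase AK4 changed by -1.66 ± 0.11, the mitophagy receptor BNIP3 by -1.60 ± 0.15 from 173 to 180 RPKM, the oxidoreductase ERO1A by -1.24 ± 0.11 and ZNF395 by -1.37 ± 0.10.

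Members of the same enzyme family split. Of the collagen prolyl hydroxylase subunits, P4HA1 fell from 51.7, 48.0 and 51.9 RPKM to 29.4, 25.8 and 16.3 RPKM (-1.11 ± 0.16, adjusted p = 5.33e-05), whereas P4HA2 rose from 12.3, 12.9 and 13.7 RPKM to 20.0, 19.7 and 18.0 RPKM (0.55 ± 0.13, adjusted p = 0.00281). The groups did not overlap for either. CA12, a membrane carbonic anhydrase, rose from 10.9, 12.1 and 12.1 RPKM to 30.8, 30.3 and 31.5 RPKM, a change of 1.36 ± 0.13 (adjusted p = 4.58e-07). TGFA, a ligand of EGFR, rose by 0.96 ± 0.12 (adjusted p = 1.33e-05) and the ribonuclease angiogenin, ANG, by 1.67 ± 0.28 (adjusted p = 0.000182) from levels of 0 to 0.124 RPKM. KCTD11 also rose (0.35 ± 0.13, adjusted p = 0.0362) but was not called after median-ratio scaling (adjusted p = 0.123). CA9, the carbonic anhydrase most often used as a hypoxia marker, did not reach the filter, with 0.544 ± 0.254 RPKM with shFOXA1 and 0 listed in all 3 double knockdown libraries.

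**Figure D2:**
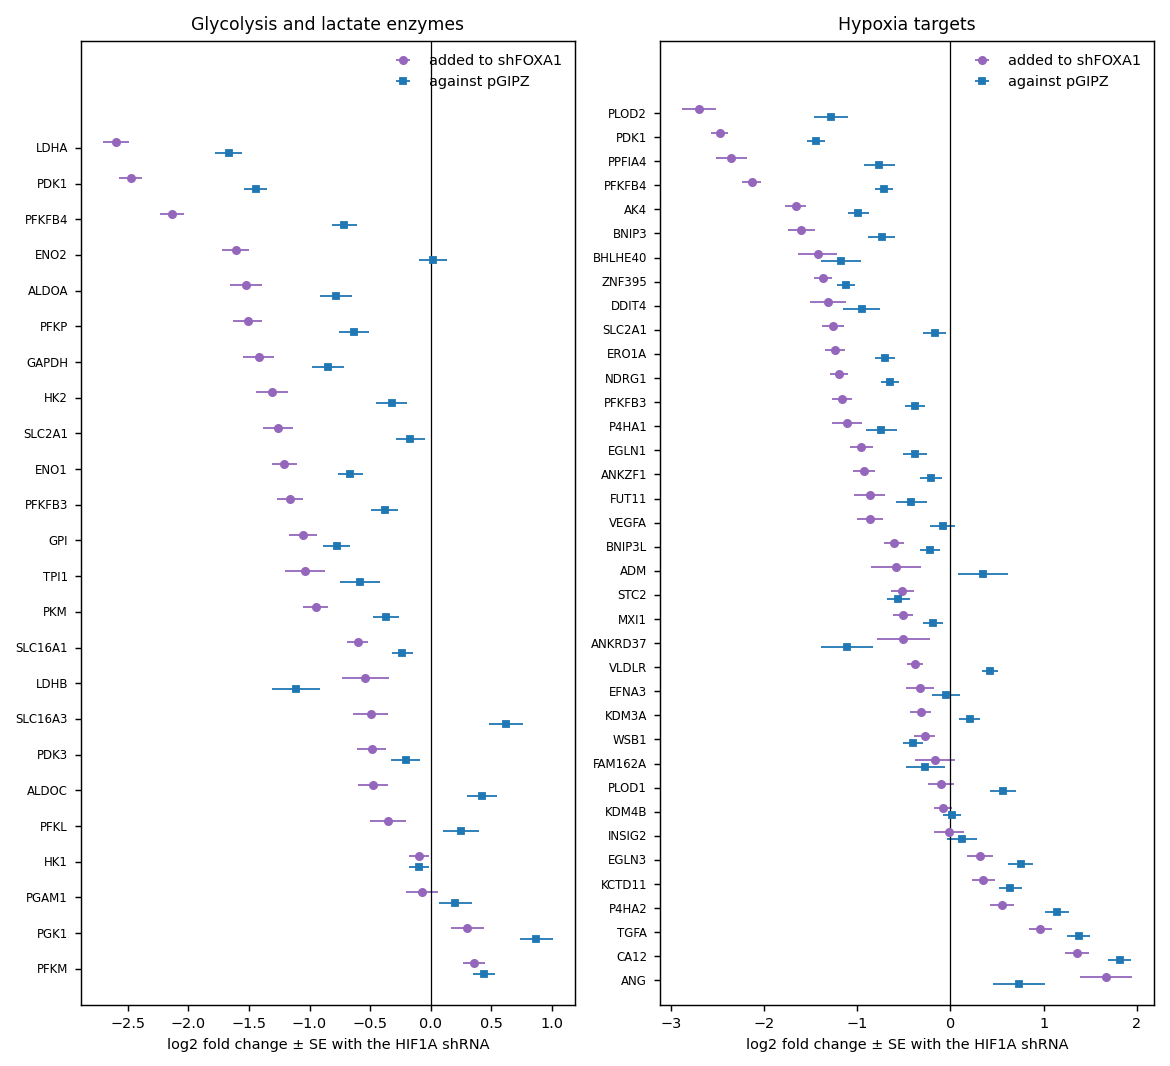
Log2 fold change ± SE with the HIF1A shRNA for each tested member of the glycolysis list (left) and the hypoxia target list (right), when it was added to shFOXA1 (circles) and against pGIPZ (squares). Most circles lie left of 0, with LDHA, PDK1 and PLOD2 farthest left and CA12 and ANG farthest right, and for ENO2 the square lies at 0 while the circle lies at -1.61.

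Of 15 tested angiogenic factors, 4 rose and 4 fell (26.7% each, against 24% and 13.5% of all tested genes), with a median of 0.00. VEGFA, the main endothelial growth factor, was at 32.6, 37.5 and 39.3 RPKM and at 17.8, 23.6 and 18.4 RPKM, a change of -0.86 ± 0.14 (adjusted p = 0.000127). VEGFB changed by -1.38 ± 0.20 and ANGPT2, a ligand of the TIE2 receptor, by -1.23 ± 0.12. EDN1, the vasoconstrictor endothelin 1, rose from 0.371, 0.702 and 0.552 RPKM to 4.24, 2.87 and 4.01 RPKM (2.01 ± 0.27, adjusted p = 2.11e-05), and the VEGF co-receptor NRP1 rose by 1.06 ± 0.11 (adjusted p = 2.09e-06). The last riser, PDGFA (0.60 ± 0.22, adjusted p = 0.0418), was not called after median-ratio scaling (adjusted p = 0.075) or without shFOXA1 replicate 3 (0.34, adjusted p = 0.229).

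Among 18 tested HIF subunits and regulators, HIF1A and EGLN1 fell and HIF1AN and CUL2 rose. That was 11.1% in each direction, against 13.5% falling and 24% rising among all tested genes. EGLN1, the main prolyl hydroxylase and itself a HIF target, changed by -0.96 ± 0.12 (adjusted p = 1.62e-05). HIF1AN, the asparaginyl hydroxylase that blocks the HIF1A activation domain, rose by 0.53 ± 0.10 (adjusted p = 0.000438). CUL2, a VHL ligase subunit, rose by 0.25 ± 0.09 (adjusted p = 0.0299), which was not called after median-ratio scaling (adjusted p = 0.285). EPAS1, which encodes HIF-2 alpha, was at 2.89, 2.95 and 2.96 RPKM and at 2.32, 2.81 and 2.14 RPKM, a difference of -0.24 ± 0.19 that did not pass (adjusted p = 0.354).

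Mitochondrial genes did not mirror the glycolytic fall in size. Of 23 tested genes of the citrate cycle and pyruvate dehydrogenase, 8 rose and 1 fell (34.8% and 4.35%, against 24% and 13.5% of all tested genes). Their median was 0.16, close to that of all genes. PDHX, a subunit of pyruvate dehydrogenase, rose from 25.8, 25.3 and 29.1 RPKM to 47.2, 40.7 and 39.0 RPKM (0.65 ± 0.10, adjusted p = 0.000113). SDHA rose by 0.61 ± 0.14 and IDH2 by 0.51 ± 0.12, and SUCLG2 changed by -0.84 ± 0.14. Of 32 nuclear genes of the respiratory chain, none rose and 1 fell by limma on the deposited scale (3 rose at an unadjusted p below 0.05, which 45.8% of all tested genes passed in either direction), with 7 rises and 3 falls after quantile normalisation.

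The largest falls outside the hypoxia lists were in genes of squamous and stressed epithelium. KRT6B, a keratin of wounded and squamous epithelium, was at 20.5, 23.2 and 20.9 RPKM with shFOXA1 and at 0.269, 0.676 and 0.728 RPKM in the double knockdown. The change was -4.41 ± 0.23 (adjusted p = 8.16e-10), the largest fall of the genes named, and it returned the level to that of pGIPZ (0.582 ± 0.311 RPKM). Reads of KRT6A, KRT6B and KRT6C, which are near-identical copies, may have been split among them by the counting, and KRT6A (-1.12) was not called without double knockdown replicate 1 (adjusted p = 0.066). KRT16, their pairing partner, was at 39.0, 49.2 and 39.5 RPKM and at 9.30, 7.10 and 10.9 RPKM (-2.18 ± 0.17, adjusted p = 7.18e-08) and stayed above the 0.0674 ± 0.0767 RPKM of pGIPZ.

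The calgranulins, calcium-binding proteins of inflamed epithelium, fell with the keratins. S100A8 was at 16.4, 19.7 and 10.4 RPKM and at 0, 1.18 and 0.454 RPKM (-4.06 ± 0.46, adjusted p = 4e-06), and S100A9 was at 50.6, 53.4 and 42.6 RPKM and at 9.58, 5.35 and 8.84 RPKM (-2.58 ± 0.20, adjusted p = 4.93e-08). The elastase inhibitor PI3 changed by -1.21 ± 0.21 (adjusted p = 0.00028). The whole list of 25 tested basal and squamous markers had 11 falls and 7 rises, with a median of -0.29. These were 44% and 28%, against 13.5% and 24% of all tested genes. The 7 risers were the integrins ITGA3 (1.64 ± 0.15) and ITGB4 (1.45 ± 0.17), the serpin SERPINB5 (1.05 ± 0.13), KRT15 (1.27 ± 0.23), the cornified envelope genes TGM1 and IVL, and the laminin chain LAMA3 (not called after median-ratio scaling, adjusted p = 0.0549).

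Signalling genes were among the largest falls too. S1PR3, a sphingosine 1-phosphate receptor, was at 79.0, 75.2 and 78.5 RPKM and at 6.09, 5.77 and 5.00 RPKM, a change of -3.68 ± 0.14 (adjusted p = 9.38e-11) to about the pGIPZ level of 6.86 ± 1.28 RPKM. The secreted ligand WNT11 was at 10.6, 13.3 and 10.1 RPKM and at 0.159, 0.320 and 0.246 RPKM (-3.99 ± 0.17, adjusted p = 2.06e-10). RGS4, which shortens G-protein signals, changed by -3.06 ± 0.15 and the gap junction protein GJA1 by -2.78 ± 0.23. The secretory protein PIP, the epidermal protein SBSN and the testis antigen MAGEA4 also fell, by -3.28 ± 0.39, -2.75 ± 0.26 and -2.82 ± 0.14. Of these, MAGEA4 was as high with pGIPZ (10.8 ± 2.14 RPKM) as with shFOXA1 (10.2, 10.6 and 11.2 RPKM), whereas the others were at or below 6.86 RPKM with pGIPZ.

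**Figure D3:**
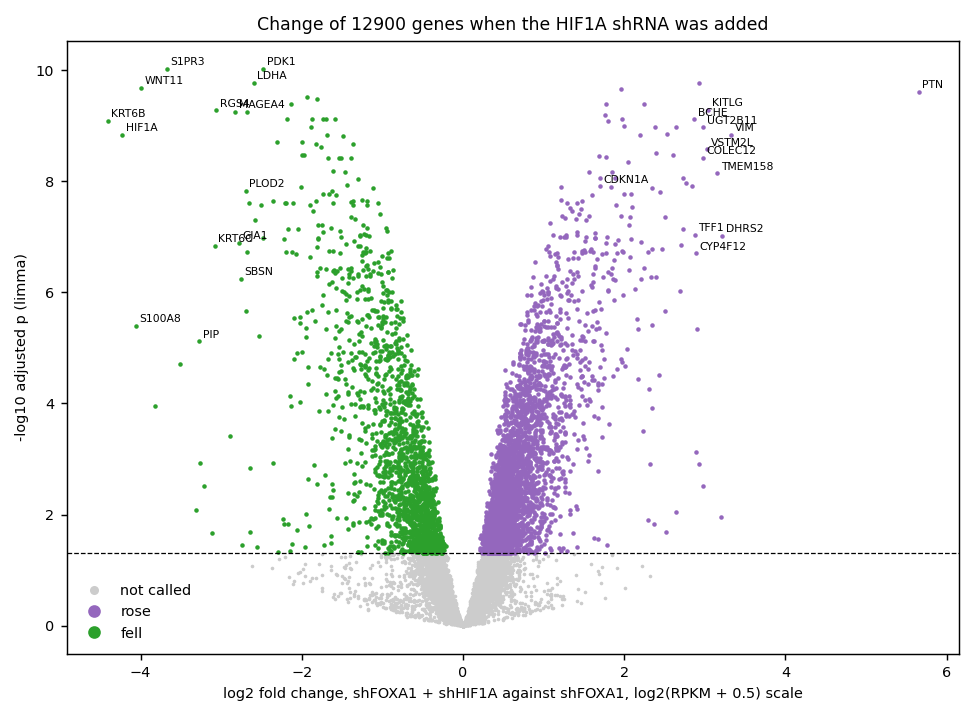
Log2 fold change of 12900 genes in the double knockdown against shFOXA1 (horizontal) against -log10 of the adjusted p from limma (vertical), with genes that rose, fell or were not called in different colours and a dashed line at an adjusted p of 0.05. PTN stands alone at the right at 5.66, and KRT6B, HIF1A, S100A8 and WNT11 lie farthest left among the labelled genes.

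Chemokines fell in part. Of 12 tested chemokines and cytokines, 6 fell and 2 rose (50% and 16.7%, against 13.5% and 24% of all tested genes), with a median of -0.64. CCL2, which attracts monocytes, was at 18.6, 12.7 and 20.7 RPKM and at 4.11, 3.51 and 4.76 RPKM (-1.93 ± 0.28, adjusted p = 4.49e-05), above the 1.93 ± 0.946 RPKM of pGIPZ. CCL8 was at 4.47, 5.11 and 4.33 RPKM and at 0.246, 1.48 and 0.569 RPKM (-2.14 ± 0.34, adjusted p = 0.000109), and CXCL2 changed by -0.94 ± 0.23. CXCL8, the neutrophil attractant, was at 24.2, 24.5 and 24.8 RPKM and at 24.7, 17.5 and 18.2 RPKM and did not pass (-0.30 ± 0.23, adjusted p = 0.341). CCL5 rose by 1.17 ± 0.29 (adjusted p = 0.00445) from levels between 0.125 and 0.149 RPKM. CCL20 fell by 0.75 (adjusted p = 0.0345) from 17.1, 18.1 and 18.6 RPKM to 14.9, 8.80 and 8.60 RPKM, and it was not called after 5 of the 6 removals of a library (adjusted p up to 0.123).

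The NF-kB list showed few changes on the deposited scale, with 3 falls and 1 rise among 15 tested members and a median of -0.16. These were 20% and 6.67%, against 13.5% and 24% of all tested genes. Of its feedback genes, TNFAIP3 was at 10.4, 10.3 and 12.2 RPKM and at 4.02, 3.84 and 4.63 RPKM (-1.30 ± 0.12, adjusted p = 4.58e-07), and NFKBIZ changed by -1.07 ± 0.13. SOD2, the mitochondrial superoxide dismutase, was at 81.1, 88.4 and 86.1 RPKM and at 40.3, 31.5 and 37.6 RPKM (-1.22 ± 0.10, adjusted p = 1.96e-07). BIRC3 rose by 0.47 ± 0.09 (adjusted p = 0.000808). Of 33 interferon-stimulated genes 9 rose (27.3%) and 4 fell (12.1%), shares near the 24% and 13.5% of all tested genes, with a median of 0.20. The interferon-induced IFIT1, IFIT2 and IFIT3 rose, by 0.86 to 1.27 (IFIT1 was not called with only the groups compared in the fit, adjusted p = 0.0563), and MX1 fell by 0.78.

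PTN showed the largest rise. PTN, a heparin-binding growth factor (chromosome 7), was at 0.252, 0.424 and 0.877 RPKM with shFOXA1 and at 50.9, 47.9 and 48.8 RPKM in the double knockdown, a change of 5.66 ± 0.25 (adjusted p = 2.44e-10). It was at 0.145 ± 0.203 RPKM with pGIPZ and 1.79 ± 0.254 RPKM with shHIF1A alone, so high levels were seen in the double knockdown alone among these 4 groups. VIM, the intermediate filament of mesenchymal cells (chromosome 10), was at 2.01, 1.76 and 1.81 RPKM and at 26.3, 21.9 and 21.8 RPKM (3.33 ± 0.18, adjusted p = 1.45e-09), above the 6.72 ± 1.06 RPKM of shHIF1A alone.

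The other large rises were in secreted, membrane and metabolic genes. TMEM158 was at 4.75, 4.14 and 2.60 RPKM and at 35.8, 38.8 and 36.8 RPKM (3.15 ± 0.20, adjusted p = 7.25e-09). KITLG, the ligand of the KIT receptor, was at 1.91, 1.38 and 1.46 RPKM and at 16.0, 18.5 and 15.4 RPKM (3.04 ± 0.15, adjusted p = 5.17e-10). For both the groups were separate. DHRS2, VSTM2L, COLEC12, CYP4F12, TFF1 and BCHE rose by 2.87 to 3.21, and in each the highest shFOXA1 library was below the lowest double knockdown library.

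Mesenchymal markers did not rise together. Of 12 tested, 5 rose and 4 fell (41.7% and 33.3%, against 24% and 13.5% of all tested genes), with a median of 0.40. COL1A1 rose by 0.98 ± 0.16 along with VIM, COL4A2 and TAGLN, whereas ACTA2, smooth muscle actin, was at 12.8, 11.7 and 12.8 RPKM and at 4.15, 3.00 and 2.56 RPKM (-1.81 ± 0.17, adjusted p = 5e-07), and the transcription factor SNAI2 changed by -1.51 ± 0.27 (adjusted p = 0.000311). THBS1 and TWIST1 also fell. TGFBI rose (0.66, adjusted p = 0.0429) but was not called after 5 of the 6 removals of a library (adjusted p up to 0.163). E-cadherin, CDH1, was at 160 to 177 RPKM and 193 to 198 RPKM, without overlap (0.21 ± 0.11, adjusted p = 0.133). It was called higher with only the groups compared in the fit (adjusted p = 0.0479) and with the 3 libraries of higher short-gene signal left out (adjusted p = 0.0431).

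Of 15 tested matrix metalloproteinases and inhibitors, 7 rose and 1 fell (46.7% and 6.67%, against 24% and 13.5% of all tested genes), with a median of 0.50. The collagenase MMP1 was at 0.253, 1.04 and 0.0941 RPKM and at 4.93, 3.38 and 5.43 RPKM (2.50 ± 0.27, adjusted p = 2.2e-06). MMP13 changed by 2.33 ± 0.22 and MMP10 by 1.70 ± 0.23. The inhibitor TIMP2 rose by 0.93 ± 0.11, and MMP7, matrilysin, fell from 8.94, 10.5 and 11.9 RPKM to 3.57, 2.48 and 3.71 RPKM (-1.55 ± 0.23, adjusted p = 7.39e-05).

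Androgen receptor targets moved in both directions. Of 35 tested targets, 13 rose and 15 fell (37.1% and 42.9%, against 24% and 13.5% of all tested genes). The median of 0.04 turned to -0.09 after median-ratio scaling. FKBP5, a chaperone in the receptor's feedback loop, was at 59.5, 62.9 and 64.0 RPKM and at 16.5, 18.8 and 18.6 RPKM (-1.76 ± 0.10, adjusted p = 2.47e-09). TMPRSS2, the serine protease whose promoter is fused to ERG in many prostate tumours, was at 140, 143 and 154 RPKM and at 39.6, 47.0 and 43.6 RPKM (-1.74 ± 0.09, adjusted p = 7.72e-10). KLK3, which encodes PSA, fell from 658, 647 and 581 RPKM to 331, 267 and 294 RPKM (-1.08 ± 0.13, adjusted p = 8.89e-06), and KLK2 and MAF fell as well (-0.92 and -1.70).

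The targets that rose included androgen-inactivating enzymes. UGT2B15, which glucuronidates dihydrotestosterone, was at 1.41, 1.12 and 1.37 RPKM and at 13.1, 9.80 and 8.82 RPKM (2.61 ± 0.15, adjusted p = 3.41e-09). Its relative UGT2B11 was at 6.46, 6.04 and 8.60 RPKM and at 63.4, 51.8 and 60.1 RPKM (2.98 ± 0.16, adjusted p = 1.07e-09). UGT2B15 and UGT2B17 are near-identical in sequence, and reads may also have been split among other members of this gene family, so the share of each is uncertain. HPGD, which degrades prostaglandins, rose by 1.51 ± 0.13, and TARP, whose reads overlap a T-cell receptor locus, by 1.73 ± 0.21. UGT2B11, HPGD and TARP were higher with pGIPZ (70.1 ± 16.4, 11.9 ± 0.731 and 36.5 ± 2.53 RPKM) than with shFOXA1, as FOXA1 was. The rise of FOXA1 by 0.91 stands beside all of these, and its part in them was not tested.

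Luminal factors split likewise. Of 23 tested luminal markers 5 rose and 9 fell (21.7% and 39.1%, against 24% and 13.5% of all tested genes). Their median of 0.06 turned to -0.06 after median-ratio scaling. The ETS factor EHF was at 204, 184 and 206 RPKM and at 69.2, 69.3 and 71.6 RPKM (-1.49 ± 0.08, adjusted p = 1.53e-09), whereas its relatives ELF3 and SPDEF rose by 1.12 ± 0.11 and 0.84 ± 0.13. HOXB13, a homeobox factor of prostate lineage, changed by -0.80 ± 0.09. The keratins KRT8, KRT18 and KRT19 were not called in the main fit, and KRT8 was called lower after median-ratio scaling (-0.43, adjusted p = 0.0135). With only the groups compared in the fit, KRT8 was called lower (adjusted p = 0.0427) and KRT19 higher (0.43, adjusted p = 0.035). KRT18 was called lower after removal of the length trend (adjusted p = 0.0396). Among forkhead and partner factors 4 rose and 6 fell of 16 (25% and 37.5%). FOXO3, a nutrient-sensing factor, was at 34.8, 34.6 and 31.2 RPKM and at 13.3, 13.9 and 11.8 RPKM (-1.33 ± 0.10, adjusted p = 4.71e-08). SOX9 was at 37.5, 37.3 and 38.2 RPKM and at 19.0, 21.4 and 19.2 RPKM (-0.91 ± 0.14, adjusted p = 8.41e-05).

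Mitosis genes fell. Of 35 tested, 27 fell and none rose by limma (77.1% falling, against 13.5% of all tested genes; none rose at an unadjusted p below 0.05), with a median of -0.98. The hyaluronan receptor and spindle protein HMMR was at 2.48, 2.50 and 3.26 RPKM and at 0.195, 0.147 and 0.264 RPKM (-2.20 ± 0.16, adjusted p = 2.45e-08). TOP2A, the topoisomerase of dividing cells, was at 2.98, 2.53 and 3.13 RPKM and at 1.28, 0.805 and 1.03 RPKM (-1.14 ± 0.13, adjusted p = 4.39e-06), below the 9.68 ± 0.0969 RPKM of pGIPZ. These genes were already low with shFOXA1, and the pseudocount bears on the size: the median was -1.40 with a pseudocount of 0.1 and -0.72 with 1. In bulk RNA, fewer dividing cells and less of these RNAs per cell cannot be told apart.

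DNA replication genes followed with exceptions. Of 38 tested, 18 fell and 3 rose (47.4% and 7.89%, against 13.5% and 24% of all tested genes), with a median of -0.46. RRM2, a subunit of ribonucleotide reductase, was at 4.99, 4.58 and 4.39 RPKM and at 1.43, 0.854 and 1.28 RPKM (-1.63 ± 0.16, adjusted p = 6.41e-07), and the replication activator E2F1 changed by -1.06 ± 0.15. The 3 that rose were the DNA ligase LIG1 (not called after 3 of the 6 removals of a library, adjusted p up to 0.124), the S-phase cyclin CCNE1 (0.94 ± 0.15) and the sliding clamp PCNA (0.79 ± 0.20). PCNA was at 31.1, 32.7 and 32.4 RPKM and at 72.6, 49.9 and 48.4 RPKM, with double knockdown replicate 1 well above the other two.

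Targets of p53 rose. Of 27 tested, 21 rose and 1 fell (77.8% and 3.70%, against 24% and 13.5% of all tested genes), with a median of 0.76. CDKN1A, the cell cycle inhibitor p21, was at 376, 355 and 367 RPKM and at 1319, 1059 and 1188 RPKM, a change of 1.69 ± 0.11 (adjusted p = 1.24e-08) that put every double knockdown library above the 894 ± 71.3 RPKM of shHIF1A alone. BTG2, an antiproliferative gene, was at 28.5, 26.4 and 27.4 RPKM and at 71.4, 60.4 and 62.2 RPKM (1.22 ± 0.09, adjusted p = 2.2e-08). GDF15, a stress cytokine, was at 880, 990 and 926 RPKM and at 2302, 1929 and 1977 RPKM (1.15 ± 0.16, adjusted p = 4.19e-05). MDM2, the p53 ligase and a standard target, was at 56.8, 48.8 and 53.6 RPKM and at 52.5, 53.2 and 47.3 RPKM and did not pass (-0.06 ± 0.09, adjusted p = 0.667), and CCNG1 fell by 0.89.

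**Figure D4:**
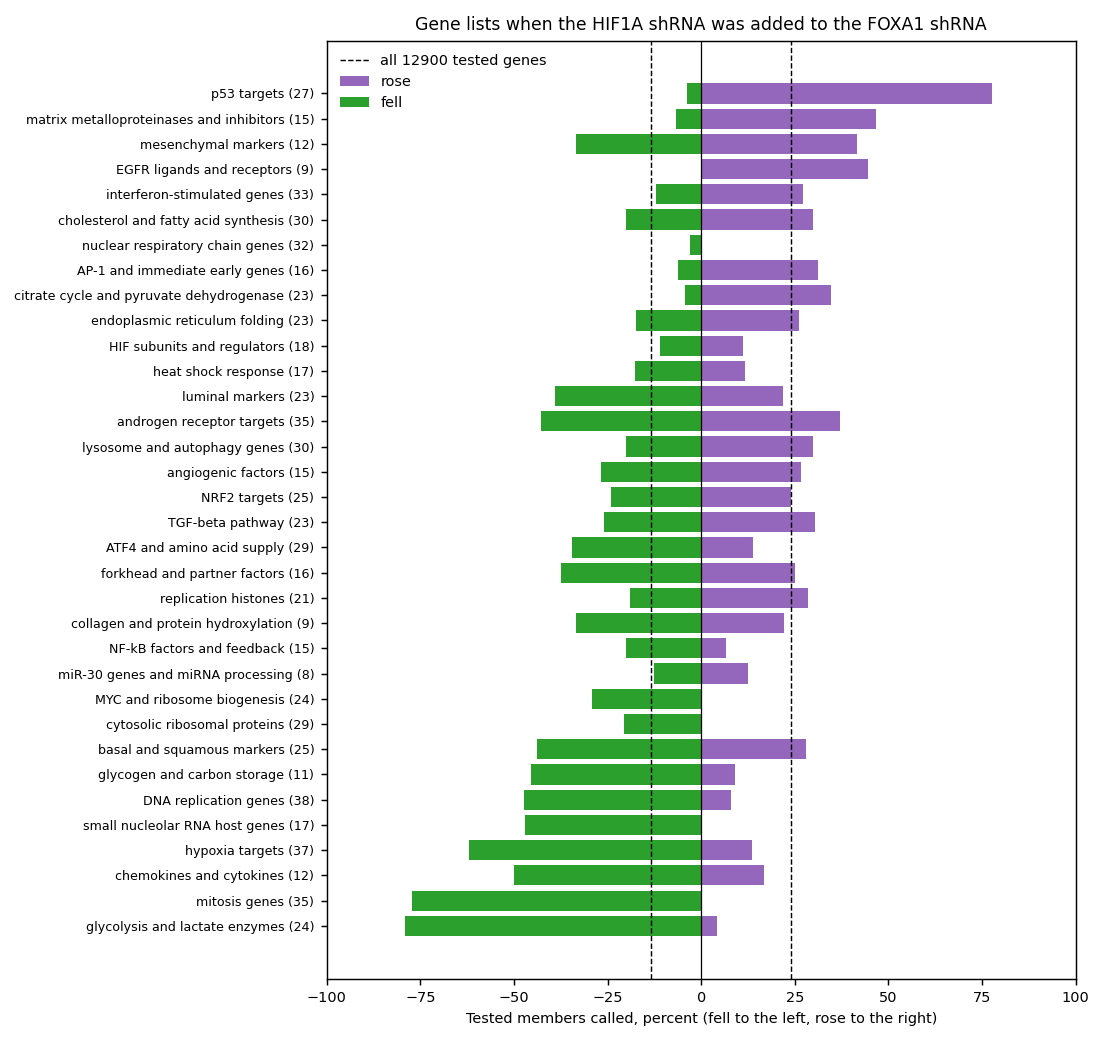
Percent of the tested members that rose (right of 0) or fell (left of 0) in the double knockdown against shFOXA1, with the number tested in parentheses and lists sorted by median log2 fold change, for the lists with at least 8 tested members; dashed lines mark 24% rising and 13.5% falling among all 12900 tested genes. Among the lists drawn, glycolysis and mitosis genes have the longest bars to the left and p53 targets the longest to the right.

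Stress and iron genes changed individually. Of 25 NRF2 targets, which serve antioxidant defence, 6 rose and 6 fell. This was 24% in each direction, against 24% rising and 13.5% falling among all tested genes. SLC7A11, the cystine importer, was at 15.8, 13.9 and 16.0 RPKM and at 52.7, 54.3 and 52.3 RPKM (1.77 ± 0.11, adjusted p = 3.73e-09). HMOX1, heme oxygenase 1 and a gene that cobalt is known to induce, was at 100, 85.0 and 83.0 RPKM and at 25.7, 26.7 and 23.4 RPKM (-1.80 ± 0.15, adjusted p = 1.09e-07). FTH1, ferritin heavy chain, was at 1629, 1975 and 1585 RPKM and at 781, 704 and 647 RPKM (-1.28 ± 0.17, adjusted p = 1.92e-05), although its many processed copies make counts uncertain.

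Of 6 metallothionein and metal-response genes 4 fell (66.7%, against 13.5% of all tested genes), with a median of -0.64. MT1G was at 16.4, 15.4 and 8.59 RPKM and at 2.27, 2.67 and 3.81 RPKM (-2.0 ± 0.25, adjusted p = 1.19e-05). Of 29 ATF4 targets 4 rose and 10 fell (13.8% and 34.5%, against 24% and 13.5% of all tested genes), with a median of -0.05. Of 17 heat shock genes 2 rose and 3 fell (11.8% and 17.6%). The small heat shock protein CRYAB was at 46.3, 38.3 and 34.5 RPKM and at 10.2, 12.3 and 11.0 RPKM (-1.78 ± 0.29, adjusted p = 0.000139). Of 23 genes of endoplasmic reticulum folding 6 rose and 4 fell (26.1% and 17.4%, near the shares of all tested genes), with 1 rise after median-ratio scaling.

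Of 9 EGFR ligands and receptors 4 rose (against 24% of all tested genes) and none fell by limma, also at an unadjusted p below 0.05, among them ERBB2 at 23.7, 26.4 and 23.9 RPKM and at 56.5, 53.5 and 57.1 RPKM (1.16 ± 0.10, adjusted p = 1.99e-07). EGFR itself did not pass (-0.57 ± 0.30, adjusted p = 0.15), but did without the 3 libraries outside this comparison with more signal in short genes (adjusted p = 0.0147) and after removal of the length trend (adjusted p = 0.0484). Of 30 cholesterol and fatty acid genes 9 rose and 6 fell (30% and 20%, against 24% and 13.5% of all tested genes). Of 23 TGF-beta pathway genes 7 rose and 6 fell (30.4% and 26.1%). Of 16 immediate early genes 5 rose and 1 fell (31.25% and 6.25%), with 4 falls after median-ratio scaling. JUN rose by 0.79 ± 0.12 (adjusted p = 0.000105). Of 30 lysosome and autophagy genes 9 rose and 6 fell (30% and 20%). Among them the ATG8 protein GABARAPL1 and the protease CTSB rose by 1.05 ± 0.10 and 0.95 ± 0.11, and the proton pump subunit ATP6V1A changed by -0.92 ± 0.08.

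For ribosome genes the counts depended on scaling, and most members did not pass on the deposited scale, where 13.5% of all tested genes fell. Of 24 MYC and ribosome biogenesis genes 7 fell and none rose by limma, also at an unadjusted p below 0.05, with 12 falls after median-ratio scaling, and MYC itself did not pass on the deposited scale (-0.33 ± 0.13, adjusted p = 0.0626) but did after median-ratio scaling (adjusted p = 0.0117). Of 29 cytosolic ribosomal proteins 6 fell and none rose by limma (12 fell and none rose at an unadjusted p below 0.05), with 17 falls after median-ratio scaling, 10 after quantile normalisation and 20 after removal of the length trend. Of 17 host genes of small nucleolar RNAs 8 fell, with a median of -0.48.

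The following RNA genes under 200 nt rest on few reads. SNORD28 was listed at 0 in all 3 shFOXA1 libraries and at 4.09, 2.06 and 4.75 RPKM in the double knockdown, and MIR6734 at 0 and at 4.51, 2.27 and 3.49 RPKM. SNORD36B was at 9.15, 13.8 and 19.1 RPKM and at 0, 0 and 3.34 RPKM, and SNORA71A at 5.65, 5.93 and 4.20 RPKM and at 0 in all 3. Each passed (adjusted p = 0.00301, 0.00125, 0.00011 and 1.93e-05 by limma). Reads of a small RNA inside a host gene cannot be told from those of the host where strand and splicing are not recorded.

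The HIF1A shRNA was then set against its effect in cells with normal FOXA1. MIR30A changed by -7.93 in this reference comparison, so its groups may differ in vector content. Such a difference cannot be told apart from the loss of HIF1A, there or in the interaction. In shHIF1A against pGIPZ, which shares no library with the main comparison, 3347 genes rose (25.9%) and 2075 fell (16.1%). Of the genes that rose in the double knockdown, 2081 also rose there (67.2% of the double knockdown list and 62.2% of the other), 32 fell and 983 were not called. Of the genes that fell, 1090 also fell there (62.5% and 52.5%), 74 rose and 581 were not called. Across the 12900 genes the fold changes of the comparisons correlated with r = 0.615 and rho = 0.640, as a description over genes, which are not independent.

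The test of the difference between the fold changes, an interaction term, called 408 genes above (3.16%) and 574 below (4.45%), where above means a more positive change in FOXA1 knockdown cells. Leaving out pGIPZ replicate 3 gave 627 above. The pGIPZ replicate 1 library, which had more signal in short genes (0.47 on the log2 scale, short minus long genes) than the other libraries of these 4 groups (-0.19 to 0.13), enters this term, and without it 320 genes were above and 467 below. In either direction it called 7.61% of all tested genes.

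With shHIF1A alone 13 of 24 glycolysis genes fell and 4 rose, against 16.1% and 25.9% of all tested genes. Among the risers were PGK1 (0.87), SLC16A3 (0.62) and PFKM (0.44). Of the 24, 13 had a called interaction below and none above by limma (17 below and none above at an unadjusted p below 0.05). LDHA changed by -1.67 in shHIF1A against pGIPZ, with an interaction of -0.93 (adjusted p = 0.00106), from a pGIPZ level of 195 ± 17.9 RPKM that was itself lower than with shFOXA1. The level that remained was alike: 61.1 ± 7.0 RPKM with shHIF1A and 50.4 to 65.8 RPKM in the double knockdown. The glycolysis list summed to 4676 to 5209 RPKM per library with shFOXA1 and 3228.5 to 3779 RPKM with pGIPZ. It summed to 2213 to 2609 RPKM in the double knockdown and 2236 to 2830 RPKM with shHIF1A alone. Interactions on this list cannot tell a changed response from a different starting level. ENO2 changed by 0.02 with shHIF1A alone (adjusted p = 0.903) and had an interaction of -1.63 (adjusted p = 9.59e-06). GBE1, VEGFA and SLC2A1 also changed by less with shHIF1A alone (0.07, -0.08 and -0.17, none called), with interactions of -1.39, -0.78 and -1.09, all called.

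Squamous and inflammatory genes had the largest differences downward. KRT6B, WNT11 and S100A8 changed by -0.07, 0.13 and 1.07 with shHIF1A alone, none of them called, and their interactions were -4.34, -4.13 and -5.13 (adjusted p = 5.73e-07, 4.41e-08 and 0.000102). KRT6B averaged below 1 RPKM with pGIPZ, so on this scale it had little room to fall there. Its interaction cannot tell a changed response from a different starting level. PI3 rose by 3.25 with shHIF1A alone, from 2.55 ± 0.275 to 28.5 ± 2.58 RPKM, where it fell in the double knockdown (interaction -4.46, adjusted p = 1.91e-07). SERPINA3, ENC1, CAPN2, SOD2 and SOX9 likewise rose with shHIF1A alone and fell in the double knockdown, with interactions of -3.95, -2.65, -1.73, -2.04 and -2.44. The double knockdown level of SERPINA3 (7.98 to 11.4 RPKM) was near that of shHIF1A alone (9.61 ± 1.67 RPKM), and that of ENC1 (45.2 to 48.0 RPKM) was above it (13.5 ± 1.04 RPKM).

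Differences upward were led by MIR30A (7.13, adjusted p = 7.85e-10), whose signal the group with only the HIF1A shRNA lacked. ACPP, prostatic acid phosphatase, fell with shHIF1A alone from 28.7 ± 0.766 to 4.77 ± 0.385 RPKM and was at 5.31, 4.46 and 4.71 RPKM with shFOXA1 and at 4.26, 3.44 and 4.38 RPKM in the double knockdown (-0.24 ± 0.10, adjusted p = 0.0815; interaction 2.24, adjusted p = 1.67e-07). In the double knockdown it was called lower after median-ratio scaling (-0.35, adjusted p = 0.0224), quantile normalisation (-0.31, adjusted p = 0.0469) and removal of the length trend (-0.36, adjusted p = 0.0208). SLC7A11 and UGT2B11 were not called with shHIF1A alone and had interactions of 1.79 and 2.71 (adjusted p = 1.64e-06 for both). PTN and VIM rose in both comparisons, by 1.87 and 1.37 with shHIF1A alone, and had interactions of 3.79 and 1.96 (adjusted p = 5.08e-06 and 0.000151). ELL2 and PPAP2A, androgen receptor targets, fell with shHIF1A alone by 0.83 and 1.06 and rose in the double knockdown by 0.35 and 0.78, with interactions of 1.18 and 1.84. The call on ELL2 in the double knockdown was lost with quantile normalisation (adjusted p = 0.0872).

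Some other named genes had changes without a called difference between the backgrounds. CDKN1A rose by 2.09 with shHIF1A alone (interaction -0.39, adjusted p = 0.162), BTG2 by 1.25 (interaction -0.03, adjusted p = 0.912) and CA12 by 1.82 (interaction -0.46, adjusted p = 0.148). KLK3 fell by 1.11 (interaction 0.03, adjusted p = 0.954) and HMMR changed by -2.06 (interaction -0.15, adjusted p = 0.753). A p above the threshold does not show that these changes were equal. Other members of their lists did differ. Of 35 mitosis genes, 8 had a called interaction above and none below by limma (13 above and none below at an unadjusted p below 0.05). This list summed to 271 to 317 RPKM per library with pGIPZ and 95.7 to 97.4 RPKM with shFOXA1, which left less room for a fall on this scale. Of 35 androgen receptor targets 13 were above and 5 below, and of 27 p53 targets 2 were above and 2 below. Among all tested genes 3.16% were above and 4.45% below.

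**Figure D5:**
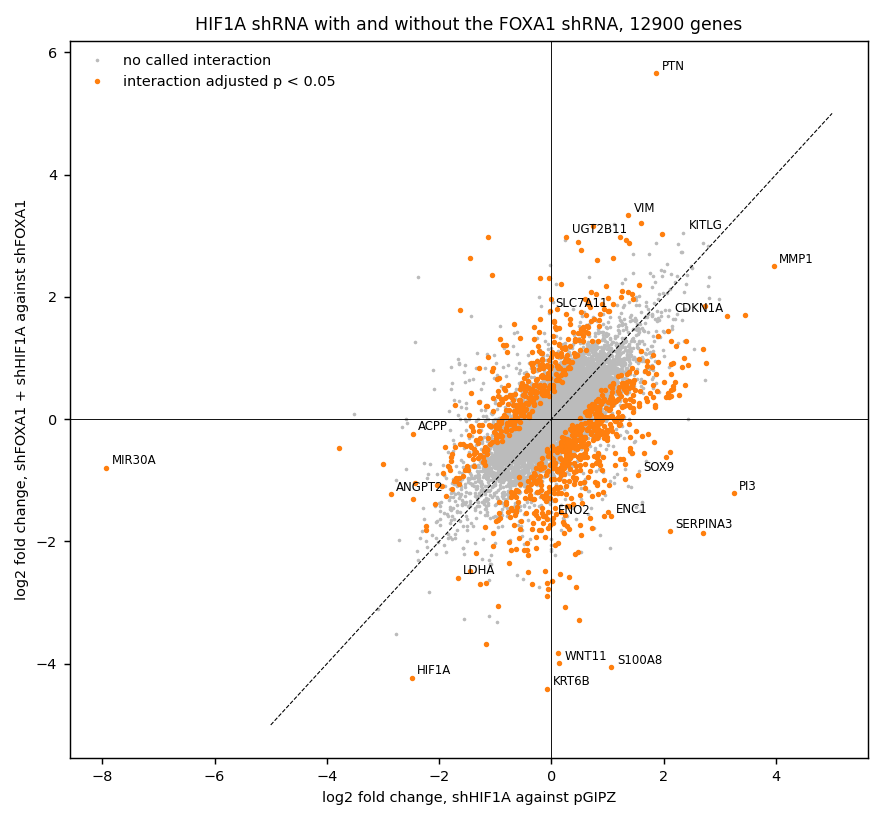
Log2 fold change with the HIF1A shRNA against pGIPZ (horizontal) and when added to shFOXA1 (vertical) for 12900 genes, with a called interaction in orange and the line of equal change dashed. LDHA and HIF1A lie low on the left, KRT6B, WNT11 and S100A8 lie far below the line near 0 on the horizontal axis, PTN far above it, and MIR30A at the far left.

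The same FOXA1 knockdown was also combined with KC7F2, a small-molecule inhibitor of HIF1A given at 40 µM, and those levels are set side by side because both designs share the shFOXA1 libraries. LDHA averaged 225 RPKM and PDK1 10.7 RPKM with shFOXA1 and KC7F2, above every double knockdown library. KRT6B averaged 3.57 RPKM and S100A9 13.9 RPKM there, also above every double knockdown library, while KRT16 at 4.32 RPKM was below all 3. S1PR3 stayed at 71.9 RPKM and PTN at 0.168 RPKM with KC7F2, near their shFOXA1 levels. The KC7F2 values are group means, which do not show whether single libraries overlap, and the difference between the designs was not tested.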

How the data were processed

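RNA sequencing libraries of LNCaP cells were made from total RNA, per the labels' protocols, in 6 groups of 3. The authors deposited RPKM values per gene and library. Per the submitters' processing notes the aligner was STAR and the build hg38. For the counting program, gene annotation and strand setting, nothing was given in the sources used here, so paralogs and overlapping or antisense genes are uncertain. Of 26475 lines, 32 had no value and were left out. Columns were matched to groups by the sample names in their headers.

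Depth was recovered from 2348 genes of up to 200 nt, whose low RPKM values are multiples of 1 read. By that depth 75.0 to 85.1% of low values were whole within 2%, so no count test was run. At 3.26 to 12.1 (in units of 1000000 reads) low genes rest on few reads.

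Values were analysed as log2(RPKM + 0.5). The 6 groups were fitted together with limma 3.58.1 (R 4.3.3; eBayes with intensity trend, two-sided, 12 residual degrees of freedom), with p-values adjusted by Benjamini-Hochberg over 12900 genes within each contrast. Groups do not overlap where the lowest library of one is above the highest of the other. On simulated data of this design with normal noise, 26 of 67 genes changed 1.5-fold, 58 of 67 changed 2-fold and 62 of 66 changed 4-fold were called, with 12 false calls among 158. Far fewer genes were changed there than were called in the data (4841), so these rates need not hold for the data.

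Gene lists are described by counts and medians and were not tested as sets. The named genes are HIF1A, FOXA1 and MIR30A, the 12 largest rises and falls (adjusted p below 0.05, at least 2 RPKM in the higher group, no overlap), up to 3 small RNAs in each direction, up to 6 members of each list by adjusted p in each direction, VEGFA, CA9, LDHA, PDK1, KLK3, TMPRSS2, CCL2 and CDKN1A, and the 6 genes with the smallest adjusted interaction p in each direction and a mean of at least 2 RPKM in 1 of the 4 groups, from which the text takes a selection. A few genes are not reported here. Members of lists without a call, and some below the 6 with the smallest p, were named after their values were seen. The members and lists were chosen with earlier results of these data known. Positions are from GENCODE 29 (12163 of 12900 tested genes matched by symbol), sequences from RefSeq GRCh38.p14. Alternatives were other pseudocounts, filters, scalings and fits, a replicate block, removal of the length trend and leaving out libraries. Python 3.11.15 with numpy 2.4.6, pandas 2.3.3 and matplotlib 3.10.9 was used for tables and figures.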

Additional observations from a re-analysis of the deposited data

Results flagged for a closer look

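The results below were picked out because the change with the HIF1A shRNA differed between cells with and without the FOXA1 shRNA by a test of the difference itself. A difference in vector content between shHIF1A and pGIPZ cells cannot be told apart from it. That interaction (limma, adjusted p below 0.05) called 408 genes above and 574 below, and the values in parentheses are its log2 differences for genes named in the text. Glycolysis, glycogen and hypoxia genes had more negative changes in the FOXA1 knockdown: LDHA (-0.93), PDK1 (-1.03), PFKFB4 (-1.42), PFKP (-0.88), ENO1 (-0.55), ENO2 (-1.63), PKM (-0.58), HK2 (-0.99), SLC2A1 (-1.09), SLC16A3 (-1.11), GBE1 (-1.39), GYS1 (-0.73), PLOD2 (-1.41), PPFIA4 (-1.59), AK4 (-0.67), BNIP3 (-0.86), ERO1A (-0.54) and VEGFA (-0.78). So did HIF1A, for which pGIPZ cells started from a lower level, and EPAS1: HIF1A (-1.74) and EPAS1 (-1.13). The summed glycolysis list also started lower with pGIPZ than with shFOXA1. Its interactions cannot tell a changed response from a different starting level. Squamous, secretory and signalling genes followed: KRT6A (-1.72), KRT6B (-4.34), KRT6C (-3.32), KRT16 (-2.65), S100A8 (-5.13), S100A9 (-2.89), PI3 (-4.46), PIP (-3.77), SBSN (-3.20), SERPINA3 (-3.95), SERPINB5 (-0.76), WNT11 (-4.13), S1PR3 (-2.51), RGS4 (-2.11), GJA1 (-2.73), ENC1 (-2.65) and CAPN2 (-1.73). Of these, KRT6B and KRT16 averaged below 1 RPKM with pGIPZ, which left little room for a fall with shHIF1A alone. Chemokine, NF-kB and interferon genes were also below: CCL2 (-1.82), CCL8 (-1.71), CCL20 (-1.89), CXCL2 (-1.33), CXCL8 (-1.69), TNFAIP3 (-1.64), NFKBIZ (-2.10), BIRC3 (-1.65), SOD2 (-2.04), IFIT1 (-1.47) and IFIT2 (-1.03). Proteases and the inhibitor TIMP2, muscle actin, stress genes and transcription factors below were MMP1 (-1.46), MMP10 (-1.74), TIMP2 (-1.25), ACTA2 (-1.60), CRYAB (-2.50), HMOX1 (-1.45), FOXO3 (-1.24), SOX9 (-2.44), EHF (-0.79) and FKBP5 (-0.59). 

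Genes with a more positive change in the FOXA1 knockdown included PTN (3.79), VIM (1.96), TMEM158 (2.41), DHRS2 (1.61), COLEC12 (1.75), VSTM2L (1.06), CYP4F12 (1.51) and SLC7A11 (1.79). Androgen receptor targets and luminal genes above were ACPP (2.24), UGT2B15 (1.79), UGT2B17 (1.23), HPGD (1.82), TARP (1.47), ELL2 (1.18), PPAP2A (1.84), TMPRSS2 (0.50) and SPDEF (0.72). UGT2B11 (2.71), a relative of UGT2B15 on neither list, was above too. Angiogenic, mitochondrial and cell cycle genes above were ANGPT2 (1.63), PDHX (0.57), PCNA (1.13) and TOP2A (0.63). TOP2A started from a lower level with shFOXA1 than with pGIPZ. Among small RNA genes the differences were MIR30A (7.13), SNORD28 (4.12) and SNORD36B (-3.93), with few reads behind the last 2. In groups of 3 no single library was tested as standing apart.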

How the results depend on the processing

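The counts of genes that rose and fell in the double knockdown stayed within 1.5 times of 3096 and 1745 under each alternative tried: 2260 to 3331 rose and 1315 to 2521 fell. Of 4841 calls, 4005 were shared after median-ratio scaling, and 4188 after quantile normalisation, where 1 gene changed sign. HIF1A stayed between -4.35 and -4.09 and FOXA1 between 0.78 and 0.96, called throughout. Leaving out each library of the compared groups in turn gave 2391 to 2738 rises and 1481 to 1639 falls. The interaction count above was 250 with only the groups compared in the fit and 276 to 627 with each library left out, the highest without pGIPZ replicate 3, and the cause was not tested. Replicate 1 of pGIPZ and replicates 1 and 3 of pGIPZ with KC7F2 had more signal in short genes. None is in the double knockdown comparison, but the first enters the interaction, which without these 3 called 329 genes above and 450 below. The replicate numbers did not pair the 2 groups (correlation of deviations -0.074, -0.051 and -0.014 for the same number), and the fit with a replicate block gave 3158 rises and 1785 falls. For shHIF1A and pGIPZ, which enter the interaction, the correlations were 0.215, 0.046 and 0.191 for the same number. They were -0.231 to 0.033 for different numbers. Of 2662 values for 158 named genes, 2569 kept their direction and side of the threshold, 67 lost and 26 gained a call, and none changed sign. Genes near 1 RPKM are limited by depth. No correction for GC content was run.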
